A study of Mus musculus with 2 samples.

Results

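The isthmic organiser genes are the genes that mark and run the signalling centre at the boundary between midbrain and hindbrain. The set was taken by gene name and held 10 genes, *En1*, *En2*, *Pax2*, *Pax5*, *Pax8*, *Wnt1*, *Fgf8*, *Fgf17*, *Fgf18* and *Cnpy1*, out of 37071 gene names measured on the array. These 10 genes were read by 18 probes, and every probe is accounted for below. The question was whether genes of the boundary were lower together in embryos without functional Plzf.

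Brain RNA of luxoid embryos, which are homozygous for the *lu* mutation of *Zbtb16* (*Plzf* lu/lu, written lu/lu here), was compared with that of wild type C57BL/6 embryos at E10.5. The luxoid allele arose spontaneously and truncates the Plzf protein, a zinc finger repressor of transcription, and the labels name luxoid in place of a background strain for these embryos. There were 2 arrays, each carrying 1 wild type sample in Cy3 and 1 lu/lu sample in Cy5, so that each genotype had 2 biological replicates. The dyes were not exchanged and both arrays lay on 1 slide, so a dye effect on a probe cannot be told apart from genotype. The labels give the tissue as brain and the methods as forebrain and midbrain, and how many embryos gave RNA to each array is not given in the sources used here. The boundary under study lies at the caudal edge of such a dissection, and how much of the isthmus each sample held is not given either.

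As background, the isthmus forms where the Otx2 domain of the midbrain meets the Gbx2 domain of the hindbrain. Pax2, Pax5, Pax8 and the engrailed proteins En1 and En2 are transcription factors that establish and maintain it, Wnt1 is secreted by the caudal midbrain, and Fgf8, with its relatives Fgf17 and Fgf18, is the secreted signal that patterns the midbrain and the cerebellum. These factors keep up one another's expression, so that loss of one commonly lowers others.

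The mutated gene was read first, as a check of the labels. The processed signal of *Zbtb16* at its brighter probe (base 5037 of NM_001033324) was 433 in wild type and 172 in lu/lu on array 1, and 546 and 211 on array 2. Wild type is named first in each such pair of signals below. The lu/lu signals lay below both wild type signals, with ratios of 0.397 and 0.386. At the dimmer probe the ratios were 0.547 and 0.471. The direction was the same at both probes. Since the luxoid mutation is a base change in the coding sequence, and whether a probe covers that base is not given in the sources used here, the signal is no direct reading of the allele.

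A gene was said to pass the signal rule when its brightest probe had a processed signal above 200 and a signal-to-noise ratio of at least 5 in all 4 channels. Of the 10 isthmic genes, 4 passed, namely *En2*, *Wnt1*, *Fgf8* and *Fgf18*. A further 5 genes, *Pax2*, *Pax5*, *Pax8*, *Fgf17* and *Cnpy1*, were well above background in all 4 channels but too dim for the rule in at least 1 of them. *En1* was not well above background in any channel. Beyond 1.3-fold on both arrays with the rule passed, 1 member (*En2*) was lower in lu/lu and 0 were higher, where 0.736% of all 10600 passing genes were lower and 2.58% were higher. Among the 9 members well above background, 3 were lower (*En2*, *Cnpy1* and *Pax8*) and 0 were higher, against 2.07% and 2.52% of 23283 genes. *En2* and *Cnpy1* are also in the study's own selection of changed genes, which was made on these arrays, so their direction here is not independent evidence of it.

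**Figure D1:**
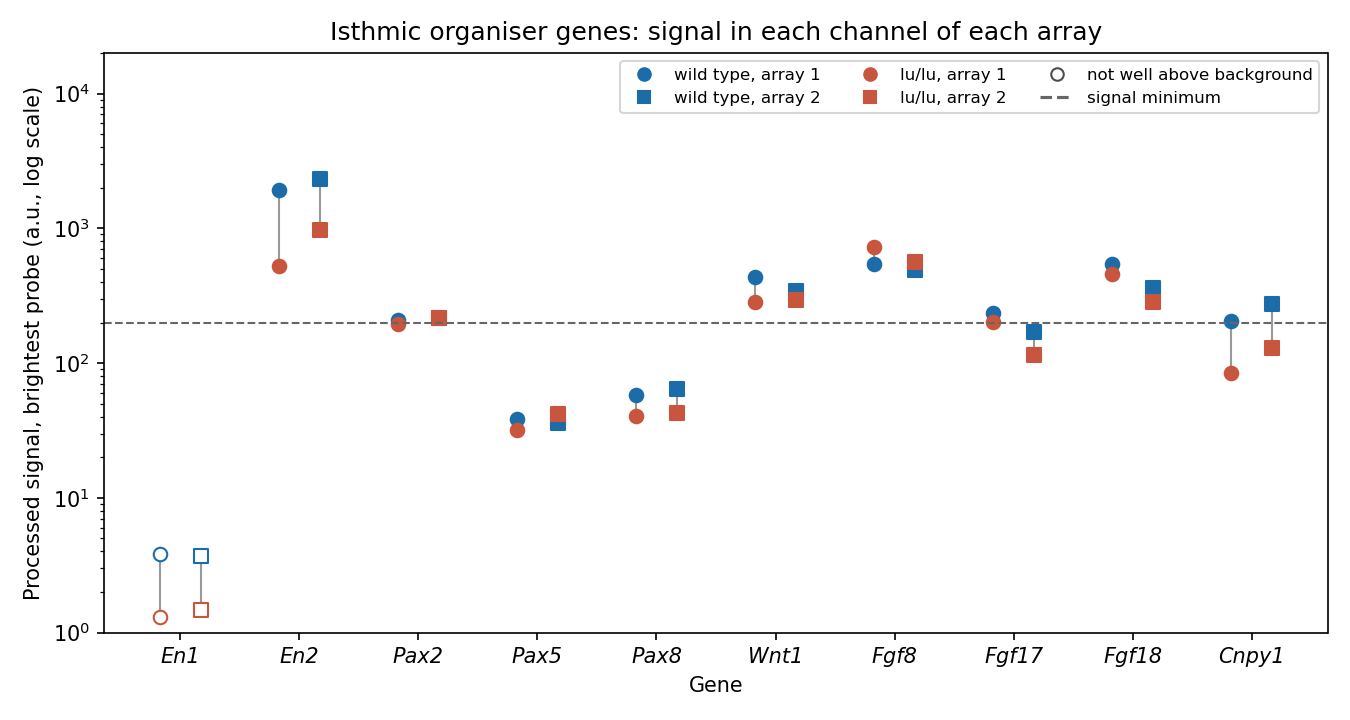
Processed signal (arbitrary units, log axis) of the brightest probe of each isthmic organiser gene, wild type in blue and lu/lu in red, circles for array 1 and squares for array 2, with grey lines joining the channels of 1 array. *En2* was at 1917 in wild type and 527 in lu/lu on array 1 and at 2310 and 974 on array 2, *Fgf8* was higher in lu/lu on both arrays, and *En1* (open symbols) was not well above background.

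Of the engrailed genes, only *En2* could be measured. Its single probe (A_51_P397876, base 3298 of NM_010134) gave a processed signal of 1917 ± 192 in wild type and 527 ± 52.7 in lu/lu on array 1, where the error is that of the feature extraction. On array 2 the signals were 2310 ± 231 and 974 ± 97.4. Both lu/lu signals were below both wild type signals, and the lu/lu signal of array 2 was the higher of that pair. The ratios of lu/lu to wild type were 0.275 and 0.422, or log2 ratios of -1.86 and -1.25. Their mean was -1.55 (SD 0.44, n = 2 arrays), a 2.94-fold lower signal. In order of mean log2 ratio, *En2* was number 3 from the lowest of the 10600 passing genes. In limma with Benjamini-Hochberg adjustment over these genes, the 95% confidence interval of the mean ran from -1.93 to -1.18 and the adjusted p was 0.0510, just above the threshold of 0.05. Limma pools the spread over genes (prior SD 0.116 on the log2 scale), and the SD of *En2* itself was larger, at 0.44. The interval is therefore narrower than the 2 values of *En2* alone would give. Over the 10 other ways of processing both arrays, the mean lay between -1.56 and -1.50 and the adjusted p from limma between 0.00935 and 0.506, with 2 of the 10 below the threshold (normexp with median centring, and eBayes with a trend on signal). In whole tissue, a dissection that took in less of the isthmus, fewer cells of the isthmus in the embryo and less *En2* RNA in each cell cannot be told apart, and the same holds for *Cnpy1* below. The probe of *En1*, the engrailed gene that begins earlier in the boundary region, had signals of 3.86 and 3.70 in wild type and of 1.47 or less in lu/lu. As none of these was well above background, no fold is given for *En1*.

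The paired box factors did not share the size of the *En2* difference. *Pax2*, the earliest of them at the boundary, had signals of 208 in wild type and 194 in lu/lu on array 1 and of 217 and 215 on array 2 at its brightest probe. The genotypes overlapped, and the mean log2 ratio was -0.06 (SD 0.06, n = 2 arrays), a mean that turned positive when the 4 probes of *Pax2* were averaged (0.09) or the trend on probe GC content was removed (0.07). Its 3 other probes had signals between 2.68 and 30.2, and 1 of these was well above background in all 4 channels, with ratios of 1.33 and 0.919. *Pax5* had signals of 38.4 and 32.1 on array 1 and of 35.9 and 42 on array 2. Its arrays pointed in opposite directions, at -0.26 and 0.22 on the log2 scale, and no direction can be given. Another *Pax5* probe was well above background on array 2 alone. *Pax8* had signals of 58.3 in wild type and 40.7 in lu/lu on array 1 and of 63.7 and 42.5 on array 2. The genotypes did not overlap, with ratios of 0.698 and 0.667 and a mean of -0.55 on the log2 scale (SD 0.05, n = 2 arrays). With all genes well above background in the fit, the adjusted p of *Pax8* from limma was 0.252 (0.252 to 0.525 over the alternatives that tested it), and it did not pass. The 2 other *Pax8* probes, with signals between 1.42 and 8.63, were at the edge of detection or not well above background, and the mean over the 3 probes was positive (0.11), so the lower value of *Pax8* rests on 1 dim probe. That value also depends on the background correction, at -0.34 with normexp and loess, which is within 1.3-fold, and at -0.79 with normexp and median centring.

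Among the secreted signals, *Fgf8* stood on the other side of 0 from the rest. Its signal was 545 in wild type and 721 in lu/lu on array 1, and 494 and 565 on array 2. Here the lu/lu signals were the higher ones and did not overlap with wild type. The ratios were 1.32 and 1.14, the mean log2 ratio was 0.30 (SD 0.15, n = 2 arrays), and the adjusted p from limma was 0.108 (0.0852 to 0.592 over the alternatives). *Wnt1*, which is expressed just rostral to *Fgf8* at the boundary and along the dorsal midline, had signals of 433 and 285 on array 1 and of 341 and 295 on array 2. The genotypes did not overlap here either, and the ratios of 0.658 and 0.866 put it beyond 1.3-fold on array 1 alone. Its mean log2 ratio was -0.41 (SD 0.28, n = 2 arrays), with an adjusted p from limma of 0.100, and over the alternatives this p lay between 0.0359, with normexp and median centring, and 0.585.

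The 2 later relatives of *Fgf8* had smaller signals in lu/lu than in wild type within each array. *Fgf18* had signals of 545 and 459 on array 1 and of 362 and 283 on array 2, so the genotypes overlapped between arrays while each array gave a ratio below 1 (0.843 and 0.783). The mean log2 ratio was -0.30 (SD 0.08, n = 2 arrays), with an adjusted p from limma of 0.0918, and over the alternatives this p lay between 0.0409, again with normexp and median centring, and 0.579. *Fgf17* had signals of 234 and 201 on array 1 and of 171 and 116 on array 2, which also overlapped between arrays. Its ratios were 0.860 and 0.676, and its mean log2 ratio was -0.39 (SD 0.25, n = 2 arrays). It was tested with all genes well above background, where the adjusted p from limma was 0.276 (0.276 to 0.581 over the alternatives that tested it).

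*Cnpy1* encodes a protein of the endoplasmic reticulum that supports FGF receptor signalling at the boundary, as was first described in zebrafish. Its brightest probe (A_55_P2811883, base 1922 of ENSMUST00000118882) had signals of 206 ± 20.7 in wild type and 84.1 ± 8.50 in lu/lu on array 1. On array 2 they were 274 ± 27.5 and 130 ± 13.1. Each lu/lu signal was below both wild type signals and below the signal minimum. The ratios were 0.409 and 0.474, and the mean log2 ratio was -1.18 (SD 0.15, n = 2 arrays), a 2.27-fold lower signal. With all genes well above background in the fit, the adjusted p of *Cnpy1* from limma was 0.252 (0.0665 to 0.506 over the alternatives that tested it), and it did not pass. The value of 0.0665 came from admitting genes when 1 channel of each array passed the rule. *Cnpy1* entered that fit through its wild type channels alone, so no conclusion is drawn from it. Another probe, at base 1880 of NM_175651, was well above background in all 4 channels at signals of 16.5 and 11.0 on array 1 and 20.5 and 13.5 on array 2, with ratios of 0.671 and 0.660. The dimmest of the 3 probes was not well above background. Over the 10 alternatives the mean log2 ratio of *Cnpy1* lay between -1.27 and -0.75, with -0.95 under normexp with loess and -0.75 for the mean over probes, both less than 2-fold. The measurable probes of *Cnpy1* thus gave the same direction with differences of unequal size.

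**Figure D2:**
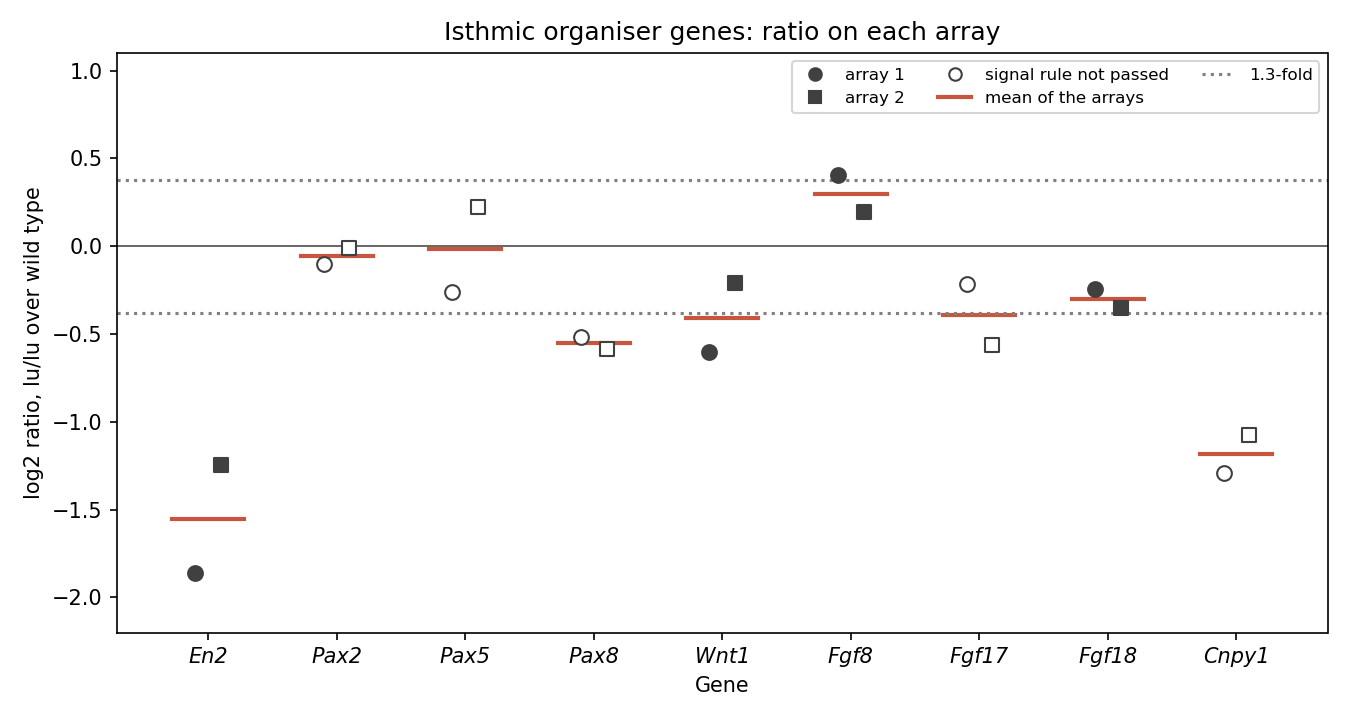
Log2 ratio of lu/lu to wild type on array 1 (circles) and array 2 (squares) for the 9 isthmic organiser genes well above background, with the mean of the arrays as a red bar, the 1.3-fold limits as dotted lines, and open symbols for genes that did not pass the signal rule. *En2*, *Cnpy1* and *Pax8* lie below the lower limit on both arrays, *Fgf8* lies above 0, and the arrays disagree in sign for *Pax5*.

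Read as a group, the 9 measurable genes did not take a single direction. On both arrays the log2 ratio was below 0 for 7 genes and above 0 for *Fgf8*, and *Pax5* changed sign between arrays. Of the 23283 genes well above background, 33.2% were below 0 on both arrays. Over the 9 genes the median log2 ratio was -0.39 (-0.26 on array 1 and -0.35 on array 2), where the median of all these genes was 0.00. Both lu/lu signals lay below both wild type signals for 4 genes (*En2*, *Cnpy1*, *Pax8* and *Wnt1*) and above both for 1 (*Fgf8*), against 22.4% and 24% of all genes well above background. In limma, 0 of the 4 genes that passed the signal rule had an adjusted p under 0.05, where 0.0283% of all passing genes did. All 4 had an unadjusted p under 0.05, where 27.8% of all passing genes did. The measurable transcription factors alone had a median of -0.30 over 4 genes, and the secreted signals a median of -0.35 over 4 genes. As processed here, the differences of *En2* and *Cnpy1* were each more than 2-fold, which for *Cnpy1* did not hold under every alternative, and no other member well above background reached that size on either array at its brightest probe.

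*En2* and *Cnpy1* are also close together in the genome. Their brightest probes lie 30.5 kb apart on chromosome 5 in mm9, *En2* at chr5:28498468-28498528 on the plus strand and *Cnpy1* at chr5:28528991-28529050 on the minus strand. The nearest genes of the list on either side did not share the direction. *Insig1*, with its probe 94.2 kb before that of *En2*, had ratios of 1.00 and 1.38, and *Rbm33*, 244 kb after it, had ratios of 1.33 and 1.14. *Shh*, 285 kb after it and also in the study's selection, had ratios of 2.09 and 2.05 and was the 1 gene of the neighbourhood with an adjusted p from limma under 0.05, at 0.0469 (log2 ratio higher on 2 of 2 arrays, mean 1.05). That call depends on the processing, as over the 10 alternatives the adjusted p of *Shh* lay between 0.00935 and 0.506 and 2 of them were below the threshold. Of 13 genes listed from *Dpp6* to *Ube3c*, 7 passed the signal rule, with 1 lower and 1 higher beyond 1.3-fold and a median of 0.03 on the log2 scale, and *Htr5a* and *Mnx1* were not well above background in any channel.

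**Figure D3:**
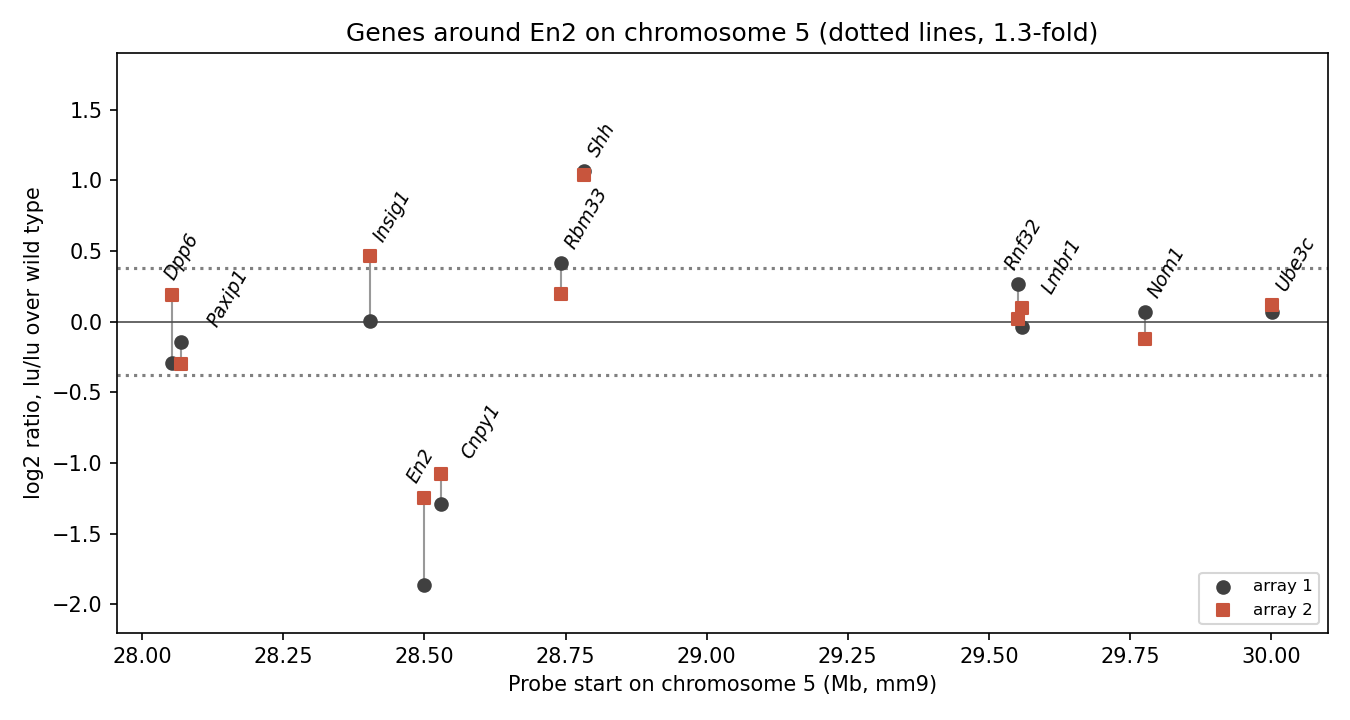
Log2 ratio of lu/lu to wild type on array 1 (circles) and array 2 (squares) against the start of the brightest probe on chromosome 5 (Mb, mm9), for the 11 listed genes around *En2* that were well above background in all 4 channels, with the 1.3-fold limits dotted. *En2* and *Cnpy1*, 30.5 kb apart, are the 2 genes below the lower limit on both arrays, and *Shh* is the 1 above the upper limit on both.

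The probe sequences behind these values are shown because *En2* rests on 1 probe and *Cnpy1* on probes that differ in brightness. Each line gives the first 30 of the 60 bases, 5′ to 3′, as deposited with the arrays, and the position is that of the whole probe in mm9. No base is marked.
*En2*, chr5:28498468-28498528: ttgtaatttaagagtctgtgaataaccatc
*Cnpy1* brightest probe, chr5:28528991-28529050: taattattcagcatgtgtgggtacaggtta
*Cnpy1* dimmer probe, chr5:28532344-28532403: gcactctctccagtttttgtataggtgtaa
*Cnpy1* dimmest probe, chr5:28533552-28533611: tttgtttgttttccaaagaatgtaggcttg
The GC content of the probes was 45% for *En2* and 35%, 35% and 38.3% for the 3 *Cnpy1* probes in this order, and with the GC trend removed the log2 ratios of the brightest probes were -1.53 for *En2* and -1.27 for *Cnpy1*.

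The promoters were searched on both strands for the homeodomain core in the forms TAATTA and TAATTG, which engrailed proteins are known to bind. The 250 bases before each gene start were taken from RefSeq (GRCm38.p6), where 7 of the 10 genes had 10 promoters, and *En2*, *Fgf8* and *Fgf17* had no entry in the table used. Of these 10 promoters 1 held a match, at 1 of the 2 starts of *Cnpy1*, and 11.3% of all 32851 promoters held one. A match was thus no more frequent among the members than over all promoters. Whether engrailed proteins act on *Cnpy1* was not tested. The match, in capitals, begins 77 bases before the start, and is a description of the letters and not of a bound site.
*Cnpy1*, chr5:28210169-28210418, minus strand, GRCm38.p6: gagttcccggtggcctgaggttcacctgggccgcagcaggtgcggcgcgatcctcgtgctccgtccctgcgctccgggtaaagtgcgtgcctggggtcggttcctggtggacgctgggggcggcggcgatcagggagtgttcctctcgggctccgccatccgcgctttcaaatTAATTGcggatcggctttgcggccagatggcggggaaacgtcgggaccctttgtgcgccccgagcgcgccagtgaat

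The partners that position the boundary were taken as a list of 10 genes, of which 6 passed the signal rule, with 0 lower, 1 higher and a median log2 ratio of 0.07 (0.21 on array 1 and -0.01 on array 2). Here and in the lists that follow, lower and higher mean beyond 1.3-fold on both arrays, and the median of all passing genes was 0.01. The signal rule leaves out the dimmer genes of the list. All 10 were well above background, and over these 3 were lower (*Gbx2*, *Hes3* and *Gbx1*), 1 was higher and the median was -0.03. *Otx2*, which sets the midbrain side, had signals of 2699 in wild type and 3523 in lu/lu on array 1 and of 2941 and 3851 on array 2, with a mean log2 ratio of 0.39 and an adjusted p from limma of 0.0629 (over the alternatives, a mean of 0.17 to 0.42 and an adjusted p of 0.0226 to 0.551). Its ratios lay close to the limit, and with normexp and loess, with the mean over probes or with the GC trend removed it was no longer beyond 1.3-fold on both arrays. Named after their values were seen, *Gbx2* and *Hes3* lay below the signal rule and had the lowest mean log2 ratios of the list. *Gbx2*, which sets the hindbrain side, had signals of 34.7 and 7.29 on array 1 and of 38.7 and 9.93 on array 2, well above background throughout. *Gbx1*, also named after its values were seen, had ratios of 0.713 and 0.768. *Hes3*, a repressor of neuronal differentiation found at the isthmus, had signals of 486 and 209 on array 1 and of 485 and 150 on array 2. The study also selected *Hes3* on these arrays. For *Gbx2* and *Hes3*, as for *En2*, both lu/lu signals lay below both wild type signals, while those of *Otx2* lay above. The arrays read whole tissue, so what part of the *Otx2* signal came from cells near the boundary was not measured. Its value is therefore no reading of where the boundary lay.

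The response to FGF signals was read from 14 receptors and response genes. Of these 11 passed the rule, with 0 lower, 1 higher and a median log2 ratio of 0.21, which was 0.36 on array 1 and 0.03 on array 2. The higher gene was *Etv1*, an ETS factor, with signals of 353 and 754 on array 1 and 358 and 624 on array 2, a mean log2 ratio of 0.95 (0.41 to 0.95 over the alternatives) and an adjusted p from limma of 0.0510 (0.00935 to 0.506 over the alternatives). With the mean over probes, where its log2 ratio was lowest, it was not beyond 1.3-fold on both arrays. It too is in the study's selection. Of 11 Wnt ligands and response genes 8 passed, with 1 lower, 0 higher and a median of -0.03 (-0.15 and 0.06 on the arrays). The lower gene was *Fzd10*, a Wnt receptor and also in the study's selection, with signals of 958 and 636 on array 1 and 1248 and 713 on array 2, and an adjusted p from limma of 0.0510 (0.00945 to 0.520 over the alternatives). *Wnt3a*, named after its values were seen, had signals of 125 and 50.0 on array 1 and 117 and 53.9 on array 2, below the signal rule. With it, 2 of the 11 Wnt genes, all well above background, were lower, and the median over the 11 was 0.02.

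Genes of the regions on either side of the isthmus were read beside *En2*. Of 12 hindbrain genes 0 passed the signal rule and 5 were well above background in all 4 channels, and among these 3 were lower, 0 were higher and the median log2 ratio was -0.70 (-0.68 on array 1 and -0.72 on array 2). Their summed signal over the 12 genes was 650 in wild type and 353 in lu/lu on array 1, and 704 and 447 on array 2. The brightest was *Irx2*, with signals of 239 and 149 on array 1 and of 308 and 187 on array 2. *Gbx2*, reported above with the boundary partners, is itself 1 of these 5 genes and of the 3 lower ones, so the lists are not separate there. Asking for all 4 channels also leaves out genes that were measurable in wild type alone. *Atoh1*, named after its values were seen, had signals of 91.6 and 2.84 on array 1 and of 83.9 and 3.92 on array 2, well above background in both wild type channels and in neither lu/lu channel, and no fold is given for it. The hindbrain genes *Hoxa2* and *Hoxb1* were not well above background in any channel, in either genotype. The part of these hindbrain values in the lower signals of *En2* and *Cnpy1* was not tested. Of 14 midbrain genes 12 passed, with 1 lower (*Pax3*, mean log2 ratio -0.55), 2 higher (*Otx2* at 0.39 and *Foxa2* at 0.97) and a median of 0.20, and their summed signal was 9113 and 10807 on array 1 and 9523 and 11252 on array 2. *Otx2*, the brightest of them, is also the higher gene of the boundary partners, so these lists are not separate there either. Of 12 forebrain genes 7 passed, with 0 lower and 3 higher and a median of 0.46 (all 12 were well above background, with 0 lower, 4 higher and a median of 0.40), and their summed signal was 6174 and 7394 on array 1 and 4567 and 7592 on array 2, with *Lhx2* the brightest. The arrays disagreed in sign for *Lhx2* (log2 ratios of -0.18 and 0.86). The same held, named after their values were seen, for *Emx2*, *Rax*, *Six6*, *Emx1* and *Hesx1*. *Pax3*, *Foxa2* and part of the higher forebrain genes are in the study's selection.

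*Pax2* and *Pax8* are also used outside the isthmus, in the optic stalk and the ear. Of 4 optic stalk genes 1 passed and was higher (*Vax2*, mean log2 ratio 0.42). Of 8 otic vesicle genes 2 passed and 1 was higher (*Eya1*, 0.57), a gene that is also expressed in cranial mesenchyme and placodes, while *Oc90*, which is specific to the otic vesicle, had signals between 4.51 and 8.95. Of the 7 otic genes well above background 2 were lower (*Pax8* and, named after its values were seen, *Dlx6* at -0.47), 1 was higher and the median was -0.03.

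Markers of other cells in the samples were read beside these values. Of 7 endothelial markers 2 passed, with 1 lower (*Emcn*, mean log2 ratio -0.65, in the study's selection), 0 higher and a median of -0.47 (-0.39 on array 1 and -0.55 on array 2). Their summed signal was 4758 in wild type and 4037 in lu/lu on array 1 and 5238 and 3766 on array 2, with *Egfl7* the brightest. All 7 were well above background, and over these 4 were lower (*Emcn* and, named after their values were seen, *Kdr* at -0.77, *Tie1* at -1.22 and *Tek* at -0.75), 0 were higher and the median was -0.65, while *Pecam1*, also named in this way, had ratios of 1.03 and 0.788. The adjusted p of *Emcn* from limma was 0.0510, and 0 of the 2 passing markers were under 0.05. The part of the endothelial values in the value of *En2* was not tested. Neural progenitor markers had a median of 0.21 over 6 genes (0.12 on array 1 and 0.42 on array 2) with 1 higher (*Sox2*, 0.46, in the study's selection), and neuron markers a median of 0.47 over 5 genes (0.21 and 0.72) with 1 higher (*Elavl4*, 0.57). Mesenchyme and neural crest markers (6 genes passing, led by *Col1a2* at 0.13 and *Prrx2* at -0.05) had a median of 0.00 with 0 genes lower or higher. Over the 8 of them well above background the median was -0.14 and 1 was lower, the crest marker *Sox10*, named after its values were seen, with ratios of 0.764 and 0.639. *Foxd3*, another crest marker named in this way, was well above background in 3 of 4 channels, at signals of 15.4 and 7.28 on array 1 and of 13.5 and 7.11 on array 2. Macrophage markers had a median of -0.27 over the 2 genes passing (*Ptprc* at -0.13 and *Csf1r* at -0.40) and of 0.06 over all 5, each well above background, so its sign depends on the signal rule, and 0 were lower or higher. Primitive erythrocyte markers (5 genes, led by *Hbb-y* and *Hbb-bh1*) had a median of -0.90 on array 1 and 0.12 on array 2, and surface ectoderm markers (6 genes, led by *Krt18* and *Krt8*) one of 0.50 and -0.32, so that both changed sign between arrays. The part of these cells in the values of *En2* and *Cnpy1* was not tested.

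By the distance between their pairs of array log2 ratios, the 5 passing genes most like *En2* were ENSMUST00000135410 (distance 0.18), ENSMUST00000119095 (0.21), *Pcp4l1* (0.47), *Pf4* (0.97) and *Cmtm7* (1.00). The measure runs over 2 arrays only. The 2 transcripts without a gene name had signals of 3637 and 880 and of 6060 and 1452 on array 1, and of 2626 and 1106 and of 4230 and 1869 on array 2. *Pcp4l1* had signals of 729 and 271 on array 1 and of 504 and 240 on array 2, and it and *Pf4* are in the study's selection. The distance of *Pf4* and *Cmtm7* was larger than the gap of 0.62 between the arrays for *En2* itself, so the likeness of these 2 genes is loose. No isthmic organiser gene was among the 5, since *Cnpy1* did not pass the signal rule and the other 3 passing members had ratios closer to 1.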

How the data were processed

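The deposited intensity values come from Feature Extraction 10.7.3.1, with which the authors subtracted background and balanced the dyes of each array by LOWESS, and nothing was normalized between arrays. The authors also deposited the log2 ratio table of the series, which was used as an alternative. Probe positions are those deposited with the arrays (mm9).

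Each array held 59305 gene spots, of which 137 and 126 were dropped as outliers. Replicate spots were averaged as log2 values, and the brightest probe stood for a gene. Signal-to-noise was the mean spot signal less the local background, over the SD of the background pixels. The log2 ratios were fitted with limma 3.58.1 (R 4.3.3; lmFit, eBayes, Benjamini-Hochberg), and the code was run on simulated data. The simulation took its spread from the same fit and held no dye effect. It therefore cannot show how well limma calls genes on these arrays. The smallest p of an exact sign-flip test on 2 arrays is 0.5, and precision is limited by the number of arrays.

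The members and lists were chosen with earlier results of these data known. Named genes were the members, from each list up to 5 genes beyond 1.3-fold on both arrays or else the 2 brightest, the 5 genes nearest to *En2*, and *Zbtb16*. Some single genes of the hindbrain and forebrain lists are not reported here. Each array pairs the genotypes, so the ratio holds the pairing. Alternatives were normexp (offset 50) with loess or with median centring, other signal rules, all probes, eBayes with a trend on signal, no pairing, 1.5-fold, removal of the GC trend (lowess, span 0.67) and each array alone. Python 3.11.15 with pandas 2.3.3, numpy 2.4.6 and matplotlib 3.10.9, and R (data.table, version 1.17.8) handled the data.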

Additional observations from a re-analysis of the deposited data

How the results depend on the processing

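The count of members lower beyond 1.3-fold (1 gene, *En2*) was the same under normexp with loess, normexp with centring, the deposited log2 table, each probe on its own, the mean over probes, removal of the GC trend and a 1.5-fold threshold. It was 2 with the signal rule in at least 1 channel, 3 for genes well above background and 4 with no signal rule, since these admit *Cnpy1*, then *Pax8*, then *En1*, which is not above background. Under the rule in at least 1 channel, *Cnpy1* was admitted by its wild type channels alone. With each array alone it ranged from 1 to 2, and the count of members higher, 0 under the other alternatives, from 0 to 1, as 1 ratio in place of 2 has to pass. Members at an adjusted p under 0.05 in limma were 0 in the fit reported, 3 with normexp and centring (*En2*, *Wnt1* and *Fgf18*) and 1 with eBayes and trend (*En2*), and 0 under the other 8 alternatives. Without the replicate pairing by array the count was 0, with an adjusted p of 0.0527 for *En2* in limma.

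The log2 ratio kept its sign for *En2*, *Cnpy1*, *Wnt1*, *Fgf8*, *Fgf17* and *Fgf18* under every alternative run. It turned for *Pax2* with the mean over probes (0.0939) and the GC trend removed (0.0669), for *Pax5* with normexp and loess (0.0119), the mean over probes (0.0614) and the GC trend removed (0.0977), and for *Pax8* with the mean over probes (0.1126). With each array alone *Pax5* ranged from -0.258 to 0.2243. The mean over probes takes in probes that are not well above background, and for the rest the cause was not tested.

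Over all genes, 78 lower and 274 higher became 120 and 455 with normexp and centring, 481 and 586 for genes well above background, 2173 and 1695 with no signal rule, 12 and 41 at 1.5-fold, and 112 and 142 with the mean over probes. With each array alone, 208 to 592 were lower and 477 to 875 higher. In limma 3 genes had an adjusted p under 0.05, against 1514 with normexp and centring, 393 with eBayes and trend, 1 with the GC trend removed, 2 with the rule in at least 1 channel and 0 under the other 6 alternatives, in 1 of which, the deposited table, rounding sets some variances to 0. Signal over background limits *En1*, *Pax5* and *Pax8* most.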
